A study of Saccharina japonica with 2 samples.

Results

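Ribosomal proteins and translation factors are the parts of the machinery that makes protein from mRNA. The 38 unigenes described here carry an annotation with the words ribosomal protein, translation initiation factor, elongation factor, tRNA ligase or tRNA synthetase. They were found among 1998 unigenes that are only a part of the study's annotation list. The number of unigenes per role is thus that of this part and not of the whole kelp transcriptome. Annotated unigenes below are those of this part, and 70288 unigenes had a read in all. Annotations that name the chloroplast or the mitochondrion were left out, which removed 1 unigene, and none of the 38 belongs to the study's lists of blue light (BL) receptors and BL response genes. The rule reads the annotation text and no read count. A unigene is a contig left after overlapping assembled sequences were merged, and several unigenes can be pieces of 1 transcript.

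The BL library came from sporophytes of the kelp Saccharina japonica that were exposed to BL for 2 h after 4 h in darkness, and the dark library from sporophytes that stayed in darkness for the same 2 h. All material was collected from cultivation rafts, and the labels name no genotype or strain. It was vegetative tissue, which the labels call mature and the paper juvenile. Each library was made from polyadenylated RNA of 1 pool of individuals. With 1 library per treatment no spread between pools could be measured, and every test here compares 2 libraries and not 2 treatments.

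The BL library held 11410538 uniquely aligned reads on 69362 unigenes and the dark library 10905306 on 61927. Levels are RPKM, that is, the reads of a unigene scaled to its length and to the aligned reads of the library. Each ratio is the RPKM in BL over that in darkness on the log2 scale, with an exact Clopper-Pearson 95% interval that covers counting error only. A unigene was called higher or lower in BL when P was at most 0.05, the FDR at most 0.001 and the change at least 2-fold, in the 2-sided Audic-Claverie test with Benjamini-Hochberg adjustment over all 70288 unigenes. The median log2 ratio of the 61001 unigenes with reads in both libraries was 0.42. Median-of-ratios scaling lowers every ratio by 0.42 and TMM scaling (trimmed mean of M values) by 0.29, so a ratio of 0.42 is the middle of these data.

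A ribosome has a small and a large subunit, each built of ribosomal RNA and many small proteins. In the cytosol of eukaryotes the subunits are called 40S and 60S, and in bacteria 30S and 50S. Plastids and mitochondria descend from bacteria and have ribosomes of the bacterial type, for which the proteins are encoded partly in the nucleus and partly in the organelle, whose genomes in brown algae are poorer in G and C than the nuclear genome. Initiation factors bring mRNA, initiator tRNA and ribosomal subunits together, elongation factors deliver aminoacyl-tRNA and move the ribosome along, and aminoacyl-tRNA synthetases (also called tRNA ligases) load each tRNA with its amino acid. The annotation used here does not say which genome, or which organism on the kelp surface, a unigene belongs to, and unigene sequences were not used here.

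All 38 unigenes had reads in both libraries, from 20 to 4994 in BL and from 24 to 9386 in darkness, with a median of 397 in BL and 507 in darkness. They were abundant transcripts. In BL 35 of the 38, and in darkness all 38, stood above the median RPKM of all unigenes. Together they took 0.288% of the BL reads (interval 0.285% to 0.291%) and 0.527% of the dark reads (interval 0.523% to 0.531%), a log2 ratio of the shares of -0.87.

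Of the 38 unigenes, 16 (42.1%) were lower in BL, 4 (10.5%) were higher and 18 passed on neither side. Over all unigenes 11.6% were lower and 25.0% higher, and over the 1998 annotated unigenes 9.11% were lower and 34.5% higher. The split over all unigenes was 16.4% lower and 20% higher under TMM scaling, and 18.9% lower and 18.0% higher under median-of-ratios scaling, and the 38 had 17 lower and 2 higher under each of these. The median log2 ratio of the 38 was -0.37, against 0.42 over all unigenes and 0.56 over the annotated ones. The ratios ran from -3.08 to 2.28. Among the 18 unigenes that were not called, 9 passed the FDR with a change of less than 2-fold and 9 did not pass it. Lower counts in a pool can come from less RNA per cell, from fewer cells that make it, or from a difference in how the 2 libraries were made or sequenced. With 1 library per treatment these cannot be told apart.

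**Figure D1:**
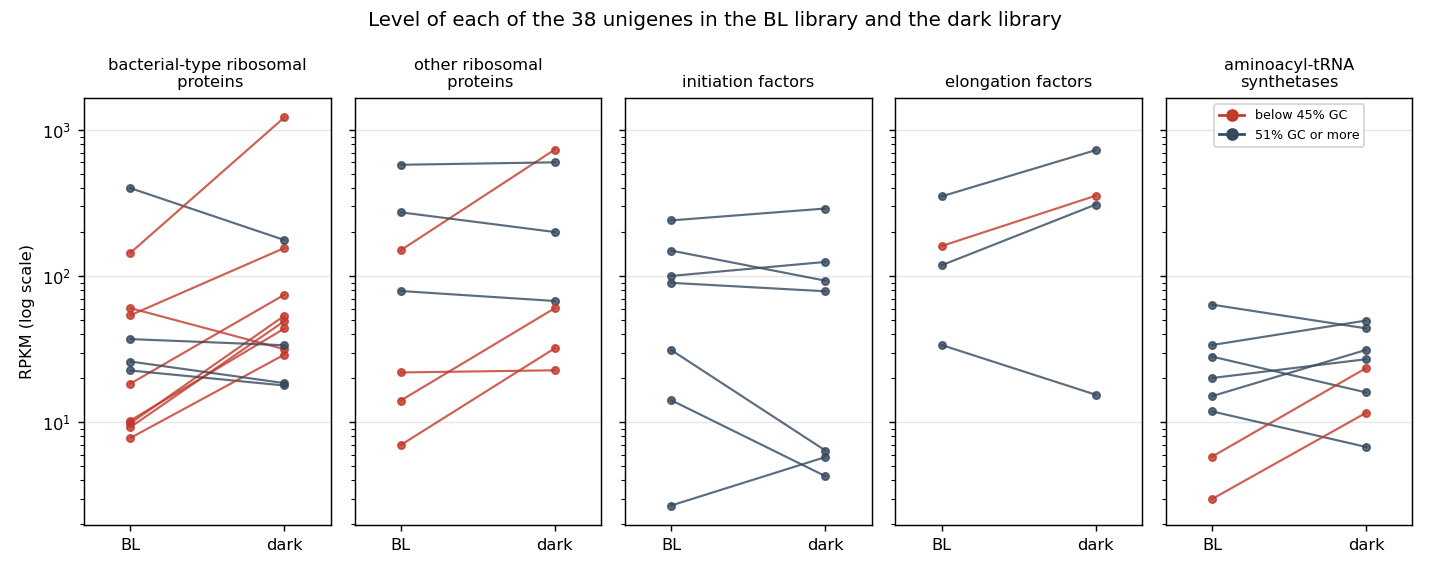
Level of each of the 38 unigenes in RPKM on a log scale, in the BL library (left) and the dark library (right) of each panel, with 1 line per unigene and 1 panel per role. Lines in red are unigenes below 45% GC and lines in dark grey those of 51.2% GC or more; most red lines are lower in BL, and the red line that is highest in darkness stands at 144 RPKM in BL and 1221 RPKM in darkness.

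The bacterial-type ribosomal proteins were the largest role, with 12 unigenes annotated as 30S, 50S or plastid ribosomal proteins. Of these, 7 were lower in BL, 1 was higher and 4 passed on neither side, with a median log2 ratio of -1.71. They took 0.0922% of the BL reads and 0.202% of the dark reads.

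All 4 unigenes annotated as 30S ribosomal proteins, of the small subunit, were lower in BL. Their GC content was 30.48% to 41.99%, and of the 81 other annotated unigenes below 45% GC 56.8% were lower. Unigene11184 (1156 bp) had 122 reads in BL and 621 in darkness, or 9.25 RPKM in BL and 49.3 RPKM in darkness, a log2 ratio of -2.41 (interval -2.71 to -2.13). Unigene1277 (785 bp) had 92 BL and 375 dark reads, a log2 ratio of -2.09 (interval -2.44 to -1.76). Unigene10012, at 210 bp the shortest of the role, had 44 BL and 171 dark reads, a log2 ratio of -2.02 (interval -2.54 to -1.54). For the longest of the 4, Unigene12420 (1629 bp), the counts were 145 in BL and 516 in darkness, with a log2 ratio of -1.90 (interval -2.17 to -1.63). The intervals of all 4 overlap, and their levels in BL were 7.80 to 18.4 RPKM, against 29.0 to 74.7 RPKM in darkness. With the GC trend removed, that is, after the common relation of ratio and GC content had been subtracted, 3 of the 4 calls held and that of Unigene10012 was lost (-0.96).

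The 7 unigenes annotated as 50S ribosomal proteins, of the large subunit, did not move together. Unigene11699 (682 bp), annotated as 50S ribosomal protein L, was the most abundant of all 38 in darkness. It had 1122 reads in BL and 9079 in darkness, or 144 RPKM in BL and 1221 RPKM in darkness. Its log2 ratio of -3.08 (interval -3.17 to -2.99) was the lowest of the 38, an 8.47-fold higher level in darkness. Unigene10992 (2431 bp) had 273 BL and 1421 dark reads, with a log2 ratio of -2.45 (interval -2.64 to -2.26). Unigene10749, at 4015 bp the longest of the 38 and several times as long as a typical ribosomal protein gene, had 2472 BL and 6822 dark reads, with a log2 ratio of -1.53 (interval -1.60 to -1.46). These 3, of 30.21% to 40.52% GC, were called lower, and without the GC trend the call of Unigene10749 was lost (-0.46).

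The other 4 unigenes annotated as 50S proteins were not called, and their ratios were above 0. Their GC content was 56.71% to 62.17%, except for Unigene11781 at 33.93%. Unigene14711 had 429 BL and 372 dark reads (log2 ratio 0.14, interval -0.06 to 0.34), Unigene11733 had 285 BL and 215 dark reads (0.34, interval 0.08 to 0.60) and Unigene14262 had 153 BL and 104 dark reads (0.49, interval 0.12 to 0.87). The fourth, Unigene11781, had 386 BL and 193 dark reads, exactly 2 to 1, and a log2 ratio of 0.93 (interval 0.68 to 1.19), just under the fold threshold. With median-of-ratios scaling the ratios of Unigene14711 and Unigene11733 were -0.28 and -0.08. Removal of the GC trend left Unigene11733 (-1.53) and Unigene14262 (-1.38) called lower, Unigene11781 (2.0) called higher and Unigene14711 at -0.54.

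The plastid ribosomal protein Unigene11107 (1093 bp) was the only bacterial-type unigene called higher in BL. It had 4994 reads in BL and 2104 in darkness, or 400 RPKM in BL and 177 RPKM in darkness, with a log2 ratio of 1.18 (interval 1.11 to 1.26). Its GC content was 59.93%, and in BL it was the second most abundant of the 38. The call was lost under TMM scaling (0.89) and median-of-ratios scaling (0.76), and the ratio was -0.45 without the GC trend.

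A further 7 unigenes were annotated as ribosomal proteins of the 60S subunit, as L12 or without a subunit. Of these, 3 were lower in BL, none was higher and 4 passed on neither side, with a median log2 ratio of -0.06. L12, known in bacteria as L7/L12, forms the stalk of the large subunit where elongation factors bind.

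Unigene1142 (1010 bp), annotated as ribosomal protein only, was the second most abundant of the 38 in darkness. It had 1733 reads in BL and 8099 in darkness, or 150 RPKM in BL and 735 RPKM in darkness, with a log2 ratio of -2.29 (interval -2.37 to -2.21). Unigene10477 (46 BL and 202 dark reads) and the L12 unigene, Unigene14656 (181 BL and 742 dark reads), had log2 ratios of -2.20 (interval -2.69 to -1.73) and -2.10 (interval -2.34 to -1.86). The intervals of the 3 overlap, although their mean read depth in BL ran from 7.18 to 154 reads per base.

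Both unigenes annotated as 60S ribosomal proteins, the cytosolic type, stayed within 2-fold, and had 60.09% and 62.56% GC. Unigene13896 (203 bp) had 1339 reads in BL and 1330 in darkness, a log2 ratio of -0.06 (interval -0.17 to 0.05). At 578 RPKM in BL it was the most abundant of the 38 there, and at 601 RPKM in darkness the fourth. Unigene13062 (228 bp) had 711 BL and 498 dark reads, a log2 ratio of 0.45 (interval 0.28 to 0.62), close to the middle of all unigenes. Unigene14468 (408 BL and 333 dark reads, log2 ratio 0.23) and Unigene10240 (92 BL and 91 dark reads, log2 ratio -0.05, interval -0.48 to 0.38) were not called either. Without the GC trend, Unigene13896, Unigene13062 and Unigene14468 were called lower, at -1.92, -1.22 and -1.14, and Unigene10240 was called higher, at 1.02.

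**Figure D2:**
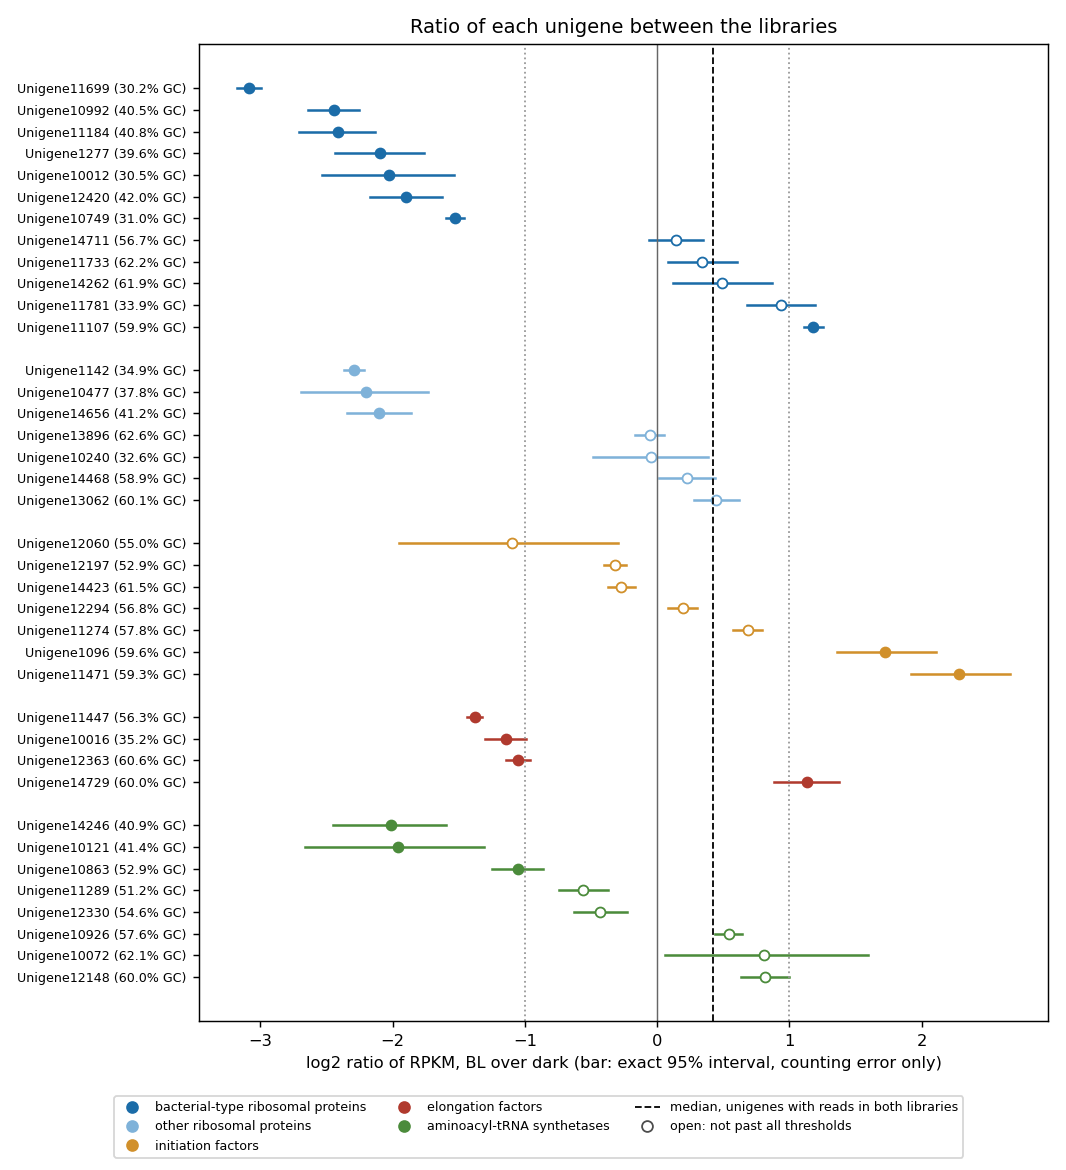
Log2 ratio of RPKM, BL over dark, of each of the 38 unigenes, grouped and coloured by role, with the exact 95% interval as a bar, the 2-fold thresholds as dotted lines and the median of all unigenes (0.42) as a dashed line. Filled points passed all thresholds: 16 lie left of the lower threshold and 4 right of the upper one. Initiation factors, all of at least 52.86% GC, hold none of the 16.

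Of the 7 initiation factors none was called lower, 2 were higher in BL and 5 passed on neither side, with a median log2 ratio of 0.19. The 28.6% called higher lay between the 25.0% of all unigenes and the 34.5% of the annotated ones. All 7 had at least 52.86% GC. Of the 1879 other annotated unigenes from 45% GC, 6.39% were lower and 36.5% higher. The 7 took 0.0661% of the BL reads and 0.0611% of the dark reads, a log2 ratio of the shares of 0.11 (interval 0.07 to 0.16). Both unigenes called higher had low counts in darkness. Unigene11471 (1045 bp) had 372 BL and 73 dark reads, or 31.2 RPKM in BL and 6.41 RPKM in darkness, and at 2.28 (interval 1.92 to 2.67) the highest log2 ratio of the 38. Unigene1096 (1672 bp), annotated as a eukaryotic translation initiation factor, had 270 BL and 78 dark reads, with a log2 ratio of 1.73 (interval 1.36 to 2.11). Both calls held with TMM and median-of-ratios scaling, and neither did with the GC trend removed (0.79 and 0.16).

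The 5 other initiation factors lay between -1.10 and 0.68. Unigene12197 (1799 bp) had the most reads of the role, 2059 in BL and 2453 in darkness, with a log2 ratio of -0.32 (interval -0.40 to -0.23). Unigene11274, annotated as IF-3, the bacterial-type factor that keeps the ribosomal subunits apart before initiation, had 1921 BL and 1143 dark reads and stood at 0.68 (interval 0.58 to 0.79). Unigene14423 (1425 BL and 1642 dark reads) and Unigene12294 (1470 BL and 1230 dark reads) had log2 ratios of -0.27 and 0.19. Unigene14423 stood at -2.15 without the GC trend and was called lower, the one call on that side in the role under this setting. Under TMM scaling the ratio of Unigene12294 was -0.10. The thinnest of the 38 in BL was Unigene12060, with 20 BL and 41 dark reads. Its log2 ratio of -1.10 had an interval from -1.95 to -0.30 and an FDR of 0.00772, so it was not called. It was called lower under TMM scaling (-1.39) and median-of-ratios scaling (-1.52).

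All 4 elongation factors passed the thresholds, 3 lower in BL and 1 higher, and as a group they took 0.0552% of the BL reads and 0.126% of the dark reads. EF-Tu is the bacterial and organellar factor that delivers aminoacyl-tRNA to the ribosome. EF-3 is an ATPase known from fungi, where it helps to clear the exit site of the ribosome. Unigene12363 (393 bp), annotated as elongation factor only, was the most abundant of the role, with 1576 BL and 3122 dark reads, or 351 RPKM in BL and 728 RPKM in darkness, and a log2 ratio of -1.05 (interval -1.14 to -0.96). The EF-Tu unigene, Unigene10016 (270 bp), had 495 BL and 1046 dark reads, with a log2 ratio of -1.14 (interval -1.30 to -0.99). The intervals of these 2 reach past the fold threshold of -1. Unigene12363 stood at -2.81 without the GC trend, while Unigene10016 stood at -0.08 and was no longer called.

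The 2 EF-3 unigenes went opposite ways. Unigene11447 (2786 bp, 56.32% GC) had 3772 reads in BL and 9386 in darkness, the most of the 38 in darkness, with a log2 ratio of -1.38 (interval -1.44 to -1.33). Unigene14729 (1189 bp, 59.97% GC) had 458 BL and 200 dark reads, with a log2 ratio of 1.13 (interval 0.89 to 1.38). Their intervals lie far apart. The call of Unigene14729 was lost under TMM scaling (0.84) and median-of-ratios scaling (0.71), and its ratio was -0.51 without the GC trend, while Unigene11447 then stood at -1.91.

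The aminoacyl-tRNA synthetases comprised 8 unigenes, of which 3 were lower in BL, none was higher and 5 passed on neither side, with a median log2 ratio of -0.49. Their share of the reads was 0.0348% in BL and 0.0347% in darkness, the closest of the 5 roles. The annotated alanyl-tRNA synthetase Unigene14246 (889 bp, 40.94% GC) had 59 BL and 228 dark reads, with a log2 ratio of -2.02 (interval -2.45 to -1.60). A second alanyl-tRNA synthetase unigene, Unigene11289 (1080 bp, 51.20% GC), had 416 BL and 585 dark reads and stood at -0.56 (interval -0.74 to -0.37). These 2 intervals do not overlap. The phenylalanyl-tRNA synthetase Unigene10121 (25 BL and 93 dark reads) stood at -1.96 (interval -2.66 to -1.31).

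The third unigene of the role called lower was Unigene10863 (1946 bp), annotated as YbaK/prolyl-tRNA synthetase-like. YbaK is a bacterial relative of the editing part of prolyl-tRNA synthetase, which removes wrongly attached amino acids. It had 335 BL and 664 dark reads, at -1.05 (interval -1.25 to -0.86). The aspartyl-tRNA synthetase Unigene10926 (2751 bp), with 2002 BL and 1316 dark reads the most-read of the role, stood at 0.54 (interval 0.44 to 0.64), and the tryptophanyl-tRNA synthetase Unigene12330 (374 BL and 481 dark reads) at -0.43. No unigene of the role was called without the GC trend, and the 3 called lower stood at -0.9995 (Unigene14246), -0.9996 (Unigene10121) and -0.83 (Unigene10863). The tyrosine-tRNA ligase Unigene12148 (718 BL and 390 dark reads) and the cysteinyl-tRNA synthetase Unigene10072 (44 BL and 24 dark reads) had the highest log2 ratios of the role, 0.82 (interval 0.64 to 0.997) and 0.81 (interval 0.06 to 1.59), and neither was called.

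**Figure D3:**
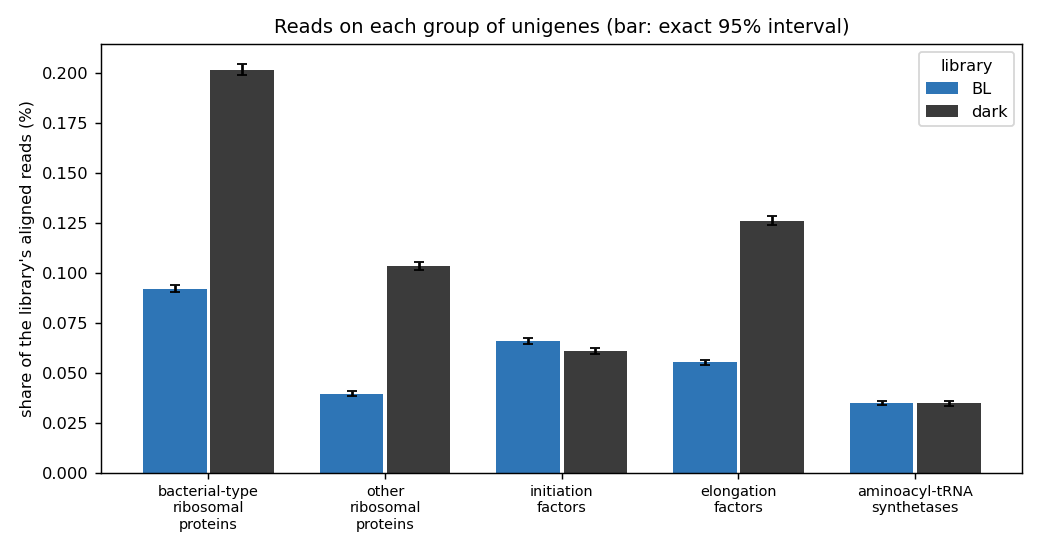
Share of each library's uniquely aligned reads, in percent, that fell on the unigenes of each role, with BL on the left of each pair and dark on the right and exact 95% intervals as error bars. The shares in BL were less than those in darkness for both groups of ribosomal proteins and for elongation factors, 0.0552% in BL against 0.126% in darkness for the last of these, and nearly equal for the aminoacyl-tRNA synthetases. Shares weigh the most-read unigenes most. Unigene1142 held 1733 of the 4510 BL reads and 8099 of the 11295 dark reads of the other ribosomal proteins. Unigene10926 held 2002 of the 3973 BL reads and 1316 of the 3781 dark reads of the synthetases.

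The GC content of the unigenes, which the rule did not use, fell into 2 separate ranges. It ran from 30.21% to 41.99% in 15 unigenes and from 51.20% to 62.56% in the other 23, with none between. Below 45% GC, a limit set after the values were seen, stood 39.5% of the 38 and 4.13% of the other 1960 annotated unigenes. Of the 15 unigenes 13 were lower in BL and none was higher, with a median log2 ratio of -2.02. Of the 23 unigenes 3 were lower and 4 higher, with a median of 0.23. The 15 took 0.0639% of the BL reads and 0.272% of the dark reads, and the 23 took 0.224% of the BL reads and 0.255% of the dark reads.

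The same limit split the ribosomal proteins alone. Of the 12 below 45% GC, 10 were lower in BL and none higher, and of the 7 from 45% GC none was lower and 1 was higher. This split was not kept without the GC trend, with 8 lower and 2 higher among the 12, and 5 lower and none higher among the 7. Bacterial-type names stood on both sides, 8 below and 4 above the limit, and the 2 unigenes named 60S were both above it. The exceptions below the limit were Unigene11781 (33.93% GC) and Unigene10240 (32.61% GC). Over the 38 the log2 ratio and the GC content had a Pearson r of 0.71 and a Spearman rho of 0.68, as a description across unigenes of the same 2 libraries. Over the other 1960 annotated unigenes rho was 0.50.

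The other annotated unigenes shared this direction. Below 45% GC 56.8% of 81 were lower in BL and 0.0% higher, with a median log2 ratio of -1.69, and from 45% GC 6.39% of 1879 were lower and 36.5% higher, with a median of 0.64. Among all unigenes below 45% GC, annotated or not, 22.7% were lower and 7.59% higher. Over 20 GC classes of all unigenes with at least 50 reads, the median log2 ratio ran from -1.07 at 40.51% GC to 1.92 at 65.36% GC. The paper lists a higher GC percentage for the clean reads of BL than for those of darkness. The part of GC content in the ratios of the 38 was not tested, beyond the removal of the trend.

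**Figure D4:**
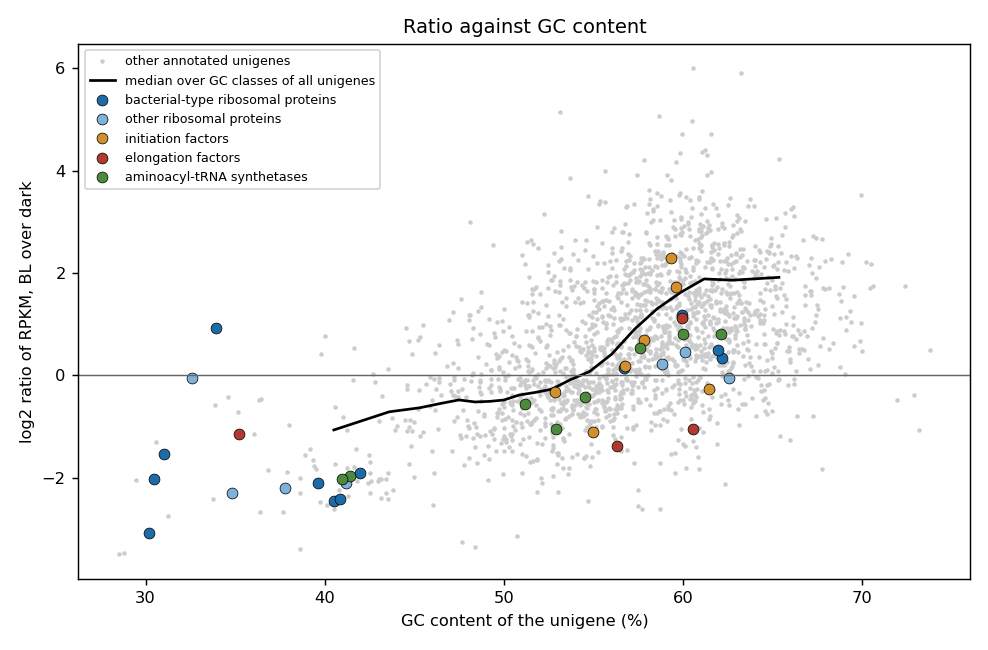
Log2 ratio of RPKM, BL over dark, against the GC content of the unigene in percent, for the 38 unigenes (coloured by role) and the other annotated unigenes (grey), with a line through the medians of 20 GC classes of all unigenes with at least 50 reads. The 8 unigenes between 37% and 43% GC lie together between -2.45 and -1.90, and most of those above 51% GC lie below the line.

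Between 37% and 43% GC, limits also chosen after the values were seen, 8 of the 38 lay in a narrow band of log2 ratios from -2.45 to -1.90. They were 30S and 50S proteins, L12, a ribosomal protein without a subunit, and the alanyl- and phenylalanyl-tRNA synthetases, with 25 to 273 reads in BL and 93 to 1421 in darkness. Of their intervals only those of Unigene10992 and Unigene12420 failed to overlap. The 39 other annotated unigenes in this GC range had a median log2 ratio of -1.81, with quartiles of -2.09 and -1.25. Below 37% GC the 7 unigenes were spread more widely, from -3.08 to 0.93, with a median of -1.53 and 5 called lower. The 14 other annotated unigenes of that range ran from -3.50 to -0.43, with a median of -1.57 and 8 called lower.

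Without the GC trend, 16 of the 38 were again lower and 2 were higher, against 9.9% lower and 17.3% higher over all unigenes. Over the 1998 annotated unigenes 399 were lower and 289 higher under this setting. Of the 16 lower ones among the 38, 10 were also called lower before. The median of the 38 was -0.9996, against 0.20 over all unigenes and -0.24 over the annotated ones. Of the 38 ratios 34 were below 0. Over all unigenes with reads in both libraries 27267 of 61001 were, and over the annotated ones 1166 of 1998. From 45% GC, 21 of 23 of the described unigenes were below 0, against 1072 of the 1879 other annotated ones. Below 45% GC the 2 groups were closer, with 13 of 15 against 60 of 81. Between 37% and 43% GC the counts were 8 of 8 and 30 of 39, with medians of -1.07 and -0.83. Most other annotated unigenes below 45% GC thus also stayed below 0 without the trend. The trend could be read only from 40.51% to 65.36% GC, and the 9 of the 38 unigenes below that range were set against its lowest class, at -1.07.

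Reads covered the 38 unigenes almost end to end, and the unigenes had been assembled from the reads of these same libraries. The median coverage over the 1998 annotated unigenes was 97.8% in BL and 95.1% in darkness. In both libraries at least 95% of the length was covered for 30 of the 38, with a median of 98.5% in each. The lowest coverage was 88.3% in BL (Unigene12060) and 76.3% in darkness (Unigene1096, with 78 reads). The tyrosine-tRNA ligase Unigene12148 stood out for its depth. With a mean depth of 28.9 reads per base in BL and 15.7 in darkness, 49 of its 2237 bases had no read in BL and 346 had none in darkness.

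A list of 20 other unigenes related to translation, which the rule left out, gave 1 lower, 6 higher and 13 on neither side. Its median log2 ratio was 0.70. These shares, 5% lower and 30% higher, were near those of the 1998 annotated unigenes, 9.11% lower and 34.5% higher. Under TMM scaling 4 of the list were lower and 5 higher, and under median-of-ratios scaling 5 and 5. Without the GC trend 5 were lower and 2 higher, with a median of -0.54. Of the 1998 annotated unigenes 275 were lower and 567 higher under TMM scaling, and 331 and 519 under median-of-ratios scaling. For them the numbers without the GC trend were 399 lower and 289 higher, with a median of -0.24. All 20 unigenes of the list had at least 50.15% GC. The release factor Unigene11259, which ends translation at stop codons, was higher, with 2069 BL and 891 dark reads (log2 ratio 1.15). Its call was lost under TMM scaling (0.86), under median-of-ratios scaling (0.73) and without the GC trend (0.13). Both polyadenylate-binding proteins, Unigene1038 and Unigene10480, which hold the tail of the mRNA, were higher at 2.34 and 2.27, and neither was called without the GC trend (0.42 and 0.37). The nucleolar GTPase Unigene14806 (106 BL and 240 dark reads) was lower, at -1.24, and was not called without the GC trend (-0.78). The 5 initiation factor and eIF3 unigenes of this list were not called, with ratios from -0.76 to 0.80. One of them, Unigene10807, was called lower under TMM scaling (-1.05) and median-of-ratios scaling (-1.18), and Unigene10909 (-1.51) and Unigene14568 (-1.08) were without the GC trend. The chloroplast 50S protein Unigene12094 (61.98% GC) was not called at 0.80, and was called lower without the GC trend (-1.07).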

How the data were processed

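The authors removed adaptors, empty reads and reads with many unknown bases, assembled the reads with SOAPdenovo, merged the unigenes with TGICL and aligned the reads back; the aligner is not given in the sources used here. The counts deposited by the authors are uniquely aligned reads per unigene and carry no normalization. The deposited percent values give the covered share of a unigene's length, its GC content and its unknown bases. Unigenes with 1 read were covered over 90 bases, so 90 was taken as read length for mean depth. Unigenes missing from a library's list were set to 0. RPKM used the aligned reads of each library as total.

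Members and lists were chosen with earlier results of these data known. No length minimum was set, since 8 members are under 500 bp. Every member is named, by role, with reads and ratios for the most-read and the extreme ones and those whose call or sign moves with scaling or GC. Intervals cover counting error only. With 1 library per treatment, replicate-based tests such as edgeR's quasi-likelihood test could not be fitted.

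Alternatives tried were Benjamini-Yekutieli adjustment, Fisher's exact test, a minimum of 500 bp, filters of 10 reads in all or 1 read in each library, TMM factors (edgeR 4.0.16), median-of-ratios size factors (DESeq2 1.42.0), an absolute log2 ratio of 2, a pseudocount of 1 RPKM, the exact test of edgeR under a spread between pools (biological coefficient of variation) set to 0.2 or 0.4, and removal of the GC trend, the line through the medians of 20 GC classes. Scripts ran in Python 3.11.15 with SciPy 1.17.1, and the tests were tested on simulated data.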

Additional observations from a re-analysis of the deposited data

How the results depend on the processing

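The 16 unigenes lower in BL numbered 16 under Fisher's exact test, Benjamini-Yekutieli adjustment and both read filters, 13 at 500 bp or more, and 17 under TMM scaling or median-of-ratios scaling, among which were all 16. By the main call 16.6% of all unigenes of at least 500 bp were lower and 33.5% higher. An absolute log2 ratio of 2 left 9 of the 38 lower and 1 higher, and the share of all unigenes at this threshold was not taken. A spread between pools, which these data cannot give, was assumed in the exact test of edgeR. At a coefficient of variation of 0.2, 10 of the 38 were lower and 2 higher, against 3.74% lower and 14.5% higher over all unigenes. At 0.4 there were 0 lower and 0 higher, against 0.185% lower and 1.19% higher over all unigenes. At 0.4, 11 of the 38 with ratios below 0 and 1 with a ratio above 0 had an unadjusted P under 0.05. This last count was not taken over all unigenes, so it gives no result about the 38. The 4 higher ones became 2 under TMM scaling, 2 under median-of-ratios scaling and 2 without the GC trend. The median log2 ratio was -0.66 under TMM scaling, -0.79 under median-of-ratios scaling and -0.9996 without the GC trend. Of the reads on annotated unigenes alone, the 38 took 3.25% in BL and 7.85% in darkness.

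Ratios that changed sign were, under TMM scaling, those of Unigene12294 (-0.10), Unigene14468 (-0.060) and Unigene14711 (-0.15), and under median-of-ratios scaling those of Unigene11733 (-0.079), Unigene12294 (-0.23), Unigene14468 (-0.19) and Unigene14711 (-0.28). Without the GC trend they were Unigene10072 (-1.06), Unigene10240 (1.02), Unigene10926 (-0.45), Unigene11107 (-0.45), Unigene11274 (-0.38), Unigene11733 (-1.53), Unigene12148 (-0.83), Unigene12294 (-0.51), Unigene13062 (-1.22), Unigene14262 (-1.38), Unigene14468 (-1.14), Unigene14711 (-0.54) and Unigene14729 (-0.51). The cause was not tested. A pseudocount of 1 RPKM changed no call. No paired analysis was possible because each treatment has 1 library.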
